A study of Homo sapiens with 10 samples.

Results

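The clustered protocadherin genes are neighbouring genes on the long arm of human chromosome 5 that encode cell surface proteins of the cadherin superfamily. They were taken by symbol and chromosome: every gene of chromosome 5 whose symbol begins with PCDHA (alpha), PCDHB (beta), PCDHGA, PCDHGB or PCDHGC (gamma A, gamma B and gamma C). This gave 57 of 26256 genes in the table of untreated cells, with 15 alpha, 19 beta, 12 gamma A, 8 gamma B and 3 gamma C genes. It gave 57 of 55736 genes in the table of the Nutlin-3a experiment, and 54 symbols stood in both. PCDHGB5 was not analysed here in the Nutlin-3a experiment.

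RNA-seq of poly(A) RNA was done on MCF10A, a non-transformed, immortalized human mammary epithelial line. The untreated groups were parental MCF10A (2 libraries) and G12V cells (2 libraries), which carry the label H-RAS Gv12. The G12V cells are MCF10A infected with a viral vector for HRas with valine in place of glycine at its twelfth residue, and selected with hygromycin. The second experiment used parental MCF10A only, exposed for 4 h to 10 µM Nutlin-3a (3 libraries) or to DMSO, its solvent (3 libraries). Nutlin-3a blocks the binding of MDM2 to p53 and so stabilises p53. The labels state at least 2 biological replicates per condition and do not give separate infections, so p-values measure the spread between these libraries.

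Each clustered protocadherin is a transmembrane protein with cadherin repeats outside the cell that bind the identical isoform on a facing cell. They are best known in the nervous system, where each neuron uses a few isoforms chosen at their own promoters and so gains a surface identity. In the alpha and gamma subclusters every gene has its own large first exon, spliced to constant exons that all genes of that subcluster share, while a beta gene is a single large exon with no shared part. CTCF and cohesin bind at many of these promoters, and DNA methylation set by DNMT3B and silencing by SMCHD1 restrain them.

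The shared exons bear on every count given here. In the GENCODE annotation of hg19, 3 exons of 59, 89 and 2718 bases were common to 15 of 16 annotated alpha genes, the last at chr5:140389212-140391929. Another 3 exons, of 59, 89 and 2029 bases, were common to 22 of 23 annotated gamma genes, the last at chr5:140890514-140892542. The alpha and gamma rows of the tables therefore overlap each other from their own first exon to the end of their subcluster. PCDHA6 had 46.7% of its exonic bases to itself and PCDHGB5 55.5%, whereas the beta genes PCDHB14 and PCDHB16 had 100%. How reads of the shared exons were counted is not given in the sources used here, nor is the handling of reads that match several of these similar genes, so single members are uncertain to that extent. Levels per kb below divide by the bases that a gene does not share.

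The promoters of the members carry a short conserved element, and the stretches around it are shown for the members on which the results turn. The sequences are RefSeq promoters of GRCh38.p14, and each run is 40 bases on the plus strand, 5′ to 3′. Capitals mark the letters searched for, which were picked after the promoters had been looked at.
PCDHA6 (alpha, chr5:140827895-140827934): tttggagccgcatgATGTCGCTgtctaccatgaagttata
PCDHA12 (alpha, chr5:140875242-140875281): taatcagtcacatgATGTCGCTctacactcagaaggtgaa
PCDHB14 (beta, chr5:141223261-141223300): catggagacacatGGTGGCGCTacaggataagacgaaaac
PCDHB16 (beta, chr5:141182308-141182347): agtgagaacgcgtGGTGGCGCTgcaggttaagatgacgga
PCDHGA7 (gamma A, chr5:141382647-141382686): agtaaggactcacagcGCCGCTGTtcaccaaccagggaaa
PCDHGB5 (gamma B, chr5:141397861-141397900): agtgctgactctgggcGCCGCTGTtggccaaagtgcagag
PCDHGC3 (gamma C, chr5:141475878-141475917): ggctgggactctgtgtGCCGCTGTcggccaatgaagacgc

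Of the members, 47 matched a RefSeq promoter, and the 250 bases before the start and the 50 after it were searched on both strands. ATGTCGCT stood in 9 of 13 alpha promoters and in 0.194% of all 27326 promoters. GGTGGCGCT stood in 12 of 14 beta promoters and in 0.421% of all. GCCGCTGT stood in 5 of 11 gamma A, 4 of 7 gamma B and both gamma C promoters, and in 1.19% of all. All of these contain CGCT or end in it, but CGCT alone was too common to mark the family: it stood in 45 of 47 member promoters and in 64.2% of all promoters. The longer GGCGCT, part of the beta element, was in 12 of 14 beta, 5 of 11 gamma A, 2 of 7 gamma B and 1 of 2 gamma C promoters, in 0 of 13 alpha promoters, and in 17.8% of all. GGCGCT preceded by AG and 2 free bases was in 2 of the 47, both beta, and in 1.94% of all. The element lay 38 to 81 bases before the start in the alpha windows and 40 to 95 bases before it in the gamma A windows. PCDHGB5 and PCDHGA7, which fell in G12V cells, and PCDHGC3, which was not called, all hold GCCGCTGT. PCDHA6, which fell, and PCDHA12, which was not called, both hold ATGTCGCT. PCDHA9, PCDHA11, PCDHAC1, PCDHAC2, PCDHGB2 and PCDHGB7, which also enter the results, held none of the elements marked in capitals in the window searched. None of these was called by the edgeR quasi-likelihood test, though DESeq2 and the edgeR exact test called PCDHAC1 lower in G12V cells. Whether the element bears on the falls was not tested.

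Total counts were 21538593 to 23683975 reads per library in the untreated cells and 15453226 to 17378734 in the Nutlin-3a experiment. HRAS reads rose from 69.3 ± 4.77 to 573 ± 82.0 CPM (reads per 1000000 reads of the scaled library, mean ± SD, n = 2 each; edgeR quasi-likelihood test, adjusted p = 0.00165). The p53 targets CDKN1A and MDM2 rose under Nutlin-3a by 2.16 and 2.54 on the log2 scale. Of 8 basal breast epithelial markers, 6 were lower in G12V cells, with KRT14 at 412 CPM in MCF10A and 0.110 in G12V and CDH1 at 219 and 0.481, and none was called under Nutlin-3a by edgeR. Genes of other cell types moved with the G12V group as well. Of 8 neuronal markers, 5 passed the filter on low counts and 2 rose, RBFOX3 (0.135 to 4.63 CPM) and SNAP25 (0.0227 to 0.998 CPM). The summed level of the 8 was 102 to 129 CPM in MCF10A and 150 to 183 in G12V, and the defining genes STMN2 and ELAVL4 were at 0 in all 4 libraries. Of 8 fibroblast markers 1 rose (LUM) and none fell, of 6 luminal markers 1 fell, and of 4 leukocyte markers CD68 rose. Over the MCF10A libraries RBFOX3, SNAP25 and LUM had 6, 1 and 1 reads, and over the G12V libraries 211, 46 and 55. These 3 markers passed the filter only through G12V, where they were higher, so their rises alone are no support for a shift of their lists. Of all genes tested in G12V cells, 5.01% rose and 5.95% fell. The part of these shifts in the protocadherin results was not tested.

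The members were scarce in every library. They held 1336 and 1899 reads in the MCF10A libraries, 1116 and 1349 in G12V, 749 to 948 in the Nutlin-3a experiment. Of the 57 members 21 passed the filter on low counts in the untreated table, 6 alpha, 9 beta, 3 gamma A, 2 gamma B and 1 gamma C. In the Nutlin-3a experiment 13 passed, 4 alpha, 7 beta, 1 gamma B and 1 gamma C, and no gamma A gene. A gene is said to be called, or to have risen or fallen, where the edgeR quasi-likelihood test gave a Benjamini-Hochberg adjusted p under 0.05 over all genes tested and an absolute log2 fold change above 0.5.

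The first question was how the members differed between G12V cells and their parental line. Alpha, gamma A, gamma B and gamma C reads were lower in both G12V libraries than in either MCF10A library, and beta reads were not. In bulk RNA, fewer cells that express a gene and less of its RNA per cell cannot be told apart. Of the 21 members tested 3 fell and none rose: PCDHGB5, PCDHA6 and PCDHGA7. At an unadjusted p under 0.05, edgeR had 5 members lower and 3 higher, 8 of 21 against 25.6% of all genes tested, and all 3 higher ones were beta genes. The log2 fold change was above 0 for 8 of the 21 members and for 49.9% of all genes. Over all 14376 genes tested, 5.95% were called lower, 5.01% higher and 11.0% in either direction, and 3 of 21 is close to that last share. The groups did not overlap for 15 of the 21 members, against 54.8% of all genes. Only 11 of the 21 reached the filter's minimum in both groups, and the 3 called members passed only through MCF10A, where they were higher, so these counts support nothing about the family as a whole.

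**Figure D1:**
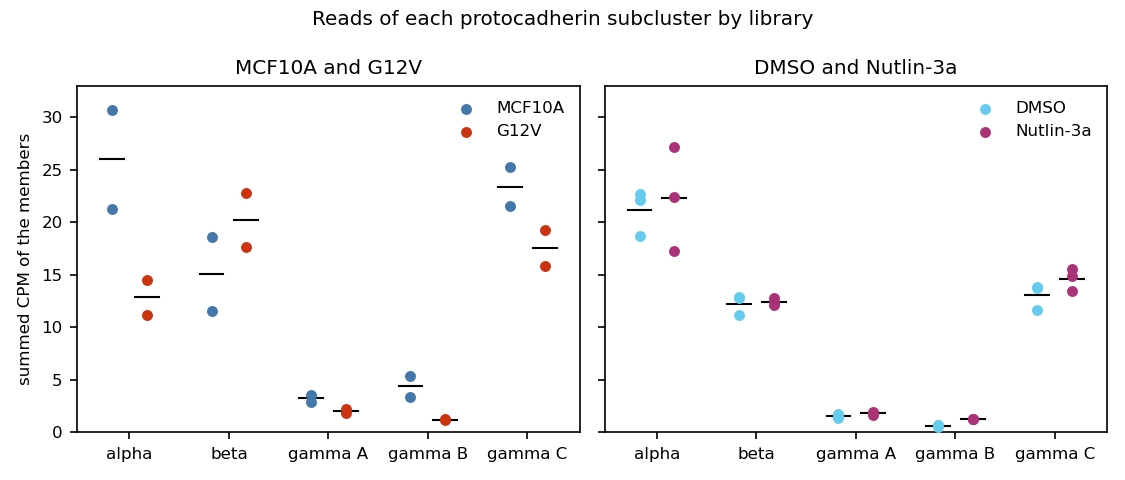
Summed CPM of the members of each subcluster (vertical axis) in each library, with MCF10A and G12V on the left and DMSO and Nutlin-3a on the right; points are libraries and bars are group means. In the left panel the alpha points of G12V (11.2 and 14.5 CPM) lie under those of MCF10A (21.3 and 30.7 CPM), while the beta points of the groups overlap. The gamma B points of the right panel leave out PCDHGB5.

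Taken as sums over all members, filter or not, the alpha genes had 21.3 and 30.7 CPM in the MCF10A libraries and 11.2 and 14.5 CPM in the G12V libraries, a log2 ratio of means of -1.02. The beta genes had 11.6 and 18.6 CPM in MCF10A and 17.7 and 22.8 CPM in G12V, a log2 ratio of 0.42, and these groups overlapped. The gamma A genes had 2.86 and 3.61 CPM against 1.84 and 2.23 CPM. The alpha and gamma A sums were thus lower in both G12V libraries, while the beta sums showed no separation. Set beside the MCF10A library of the same number, each G12V library had the higher beta sum, at a mean log2 ratio of 0.45. The labels do not state such a pairing, and a direction for beta rests on it. Gamma B had 3.36 and 5.42 CPM in MCF10A and 1.15 and 1.29 CPM in G12V, a log2 ratio of -1.84 that came to -0.30 without PCDHGB5. Gamma C had 21.6 and 25.2 CPM against 15.8 and 19.3 CPM, and PCDHGC3 alone supplied between 98.6% and 99.8% of those reads. These sums are descriptions with no test, and with 2 libraries against 2 an exact permutation test cannot go below p = 0.333.

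Beta genes took up a larger part of the member reads in both G12V libraries. They held 19.1% and 22.3% of all member reads in the MCF10A libraries and 37.1% and 37.9% in the G12V libraries. Alpha genes held 35.1% and 36.8% in MCF10A and 23.5% and 24.2% in G12V. The ranges do not overlap for either subcluster, and no test was made on these shares. Gamma C held 35.6% and 30.2% in MCF10A and 33.2% and 32.1% in G12V, which overlap.

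**Figure D2:**
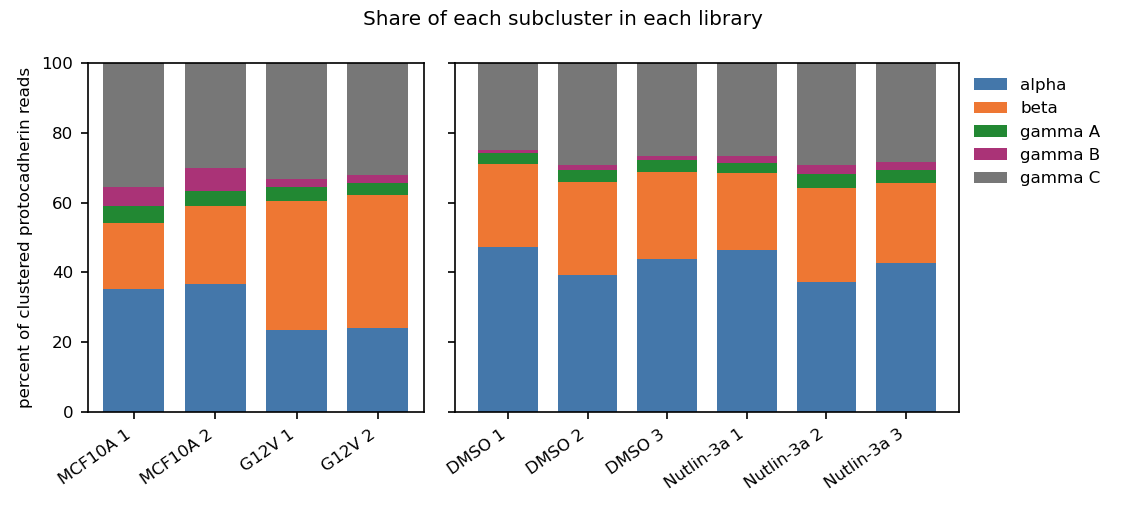
Percent of all clustered protocadherin reads that fall to each subcluster (vertical axis, stacked bars) in each of the 10 libraries. The beta part is 19.1% and 22.3% in MCF10A and 37.1% and 37.9% in G12V, and in the DMSO and Nutlin-3a libraries it lies between 21.9% and 26.8%. The DMSO and Nutlin-3a bars leave out PCDHGB5.

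PCDHGB5, a gamma B isoform with its own first exon and the shared gamma exons (chr5:140777695-140892546, hg19), had 55 and 79 reads in the MCF10A libraries and 1 and 3 in the G12V libraries. It was among the better covered members in MCF10A and close to 0 in G12V, with no overlap. The level went from 2.99 ± 0.693 to 0.0883 ± 0.0644 CPM (n = 2 each), which edgeR gave as -5.01 ± 0.60 (SE) on the log2 scale with an adjusted p of 0.00666. As a ratio of scaled reads it was 34.3-fold lower in G12V, with a 95% exact binomial interval of 13.1 to 128 that covers counting error only. In MCF10A it made up 74.3% and 64.2% of the gamma B reads, and in G12V 3.70% and 10.3%. The adjusted p was 0.0940 without MCF10A replicate 1, and with libraries left out in turn the log2 fold change ran from -5.96 without G12V replicate 2 to -4.43 without G12V replicate 1.

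No other gamma B gene was called. PCDHGB7, another isoform of this kind, had 4 and 18 reads in MCF10A and 12 and 15 in G12V, which overlap (log2 fold change 0.27, SE 0.70). PCDHGB2 had 7 and 5 reads against 8 and 5 and was not tested. PCDHGB7 and PCDHGB2 together with PCDHGB5 were the gamma B genes with the most reads, and the 6 untested gamma B genes held 41 reads in MCF10A and 25 in G12V.

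PCDHA6, an alpha isoform (chr5:140207507-140391929), had 25 and 24 reads in MCF10A and 5 and 4 in G12V. The libraries of each group were almost alike and the groups lay far apart. The fall was -2.45 ± 0.47 (SE) on the log2 scale with an adjusted p of 0.0268 by edgeR, and the ratio of scaled reads was 5.58-fold (2.71 to 12.9). The call did not hold when any 1 library was left out (adjusted p from 0.0612 to 0.173) or in DESeq2 (adjusted p = 0.0747). Of its unshared bases 22.8% lie under another annotated gene, and the library kit does not mark strand, so reads there cannot be told apart.

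PCDHGA7, a gamma A isoform (chr5:140762306-140892546), was the called member nearest to the threshold. It had 11 and 14 reads in MCF10A and 2 in each G12V library. The fall was -2.60 ± 0.58 (SE) on the log2 scale with an adjusted p of 0.0429 by edgeR, and the ratio of scaled reads was 6.40-fold (2.21 to 25.3). With so few reads the size of the fall is known only within that wide interval. The call was lost without any 1 library (adjusted p from 0.151 to 0.258), in DESeq2 (0.226) and without the filter on low counts (0.0828).

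**Figure D3:**
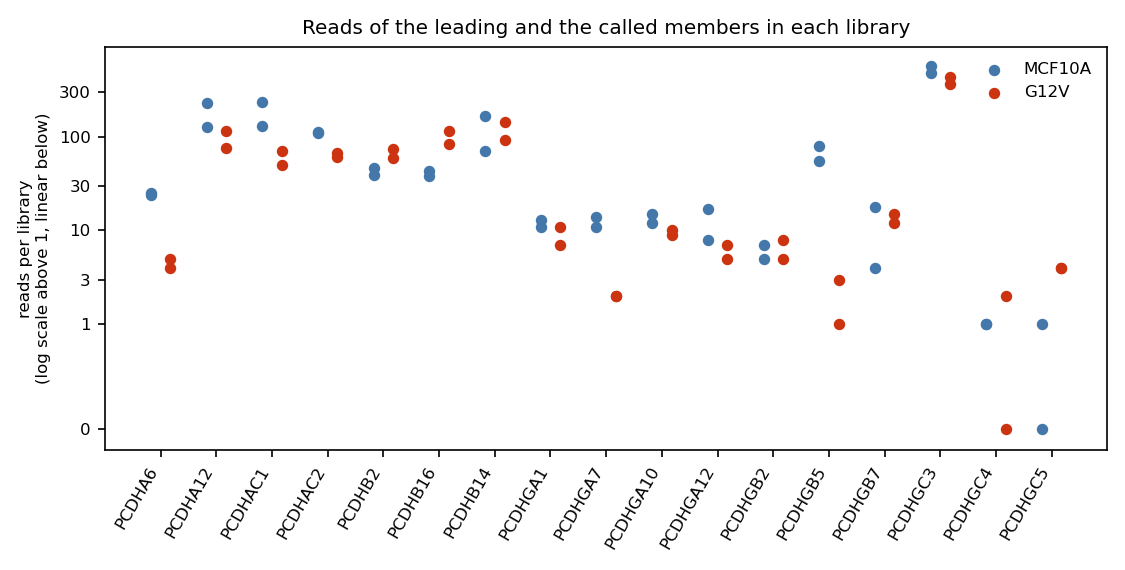
Reads per library (vertical axis, logarithmic above 1 read and linear below) of the leading 3 members of each subcluster and of the called members, in MCF10A and G12V. PCDHGB5 drops from 55 and 79 reads to 1 and 3, whereas PCDHGC3 has 366 to 571 reads in all 4 libraries.

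Most alpha reads came from PCDHA12, PCDHAC1 and PCDHAC2, which together held 79.3% and 82.2% of them in MCF10A and 73.7% and 75.8% in G12V. PCDHAC1, one of the pair of C-type alpha isoforms that stand nearest to the constant exons, had 131 and 235 reads in MCF10A and 50 and 71 in G12V. The groups were separate, with a log2 fold change of -1.62 (SE 0.42), and the adjusted p of 0.0642 was just short of the threshold. DESeq2 called it (adjusted p = 0.00711). PCDHA12 had 128 and 230 reads against 76 and 115 (log2 fold change -0.93, adjusted p = 0.234). PCDHAC2, the other C-type isoform, had 113 and 109 reads against 67 and 61 (log2 fold change -0.83, adjusted p = 0.171). All 3 were thus below MCF10A in both G12V libraries by the reads, and none of them was called by the quasi-likelihood test. PCDHAC1 was called by the edgeR exact test (adjusted p = 0.00672).

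Not every alpha gene was lower. PCDHA9 had 33 and 31 reads in MCF10A and 35 and 30 in G12V, and PCDHA11 had 19 and 36 against 25 and 39, with the groups overlapping for both. The 9 alpha genes under the filter held 20 and 33 reads in the MCF10A libraries and 4 and 6 in the G12V libraries. All 9 had a read in MCF10A and 6 of them had none in G12V. PCDHA4, singled out after its values were seen, had 9 and 18 reads in MCF10A and 0 in both G12V libraries, which is at least 9.22-fold lower by a floor of 3 counts over the group. It had too few reads to pass the filter on low counts, and it was called when the filter was dropped (adjusted p = 0.0475 by edgeR).

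Of the 8 tested members with a log2 fold change above 0, 6 were beta genes and the other two were PCDHA11 and PCDHGB7, and the quasi-likelihood test called none of them. PCDHB16 (chr5:140561265-140565796) had 38 and 43 reads in MCF10A and 83 and 114 in G12V. The groups were well separated, at a log2 fold change of 1.25 (SE 0.37), but the adjusted p of 0.0891 missed the threshold in the quasi-likelihood test. The edgeR exact test called it higher (adjusted p = 0.0304). PCDHB12 had 4 and 13 reads against 25 and 28 (log2 fold change 1.60, SE 0.59), and PCDHB3 had 6 and 4 against 12 and 14 (1.32, SE 0.52). Their adjusted p-values were 0.156 and 0.182, and both passed the filter on low counts only through the G12V libraries, where they were higher. These genes with PCDHB16 were the 3 beta genes at an unadjusted p under 0.05.

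PCDHB14, the beta gene with the most reads, had 71 and 166 reads in MCF10A and 93 and 143 in G12V. The G12V libraries lay inside the range of the MCF10A libraries (log2 fold change -0.03, SE 0.49). PCDHB2 had 46 and 39 reads against 74 and 59, with no overlap, a log2 fold change of 0.61 and an adjusted p of 0.364. Only 5 of the 9 tested beta genes reached the filter's minimum in both groups, and of these 4 lay above MCF10A in both G12V libraries and PCDHB14 overlapped. Over all genes tested 54.8% did not overlap. That share takes both directions and sets no such condition on the filter, so it is not a like measure. PCDHB10 and the pseudogene PCDHB19P had log2 fold changes of -0.40 each (SE 0.64 and 0.48), too uncertain to give a direction. The beta genes have no shared exons, but part of some lies under another annotated gene. This holds for 26.1% of the bases of PCDHB16, 43.8% of those of PCDHB2 and 91.6% of those of PCDHB19P.

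**Figure D4:**
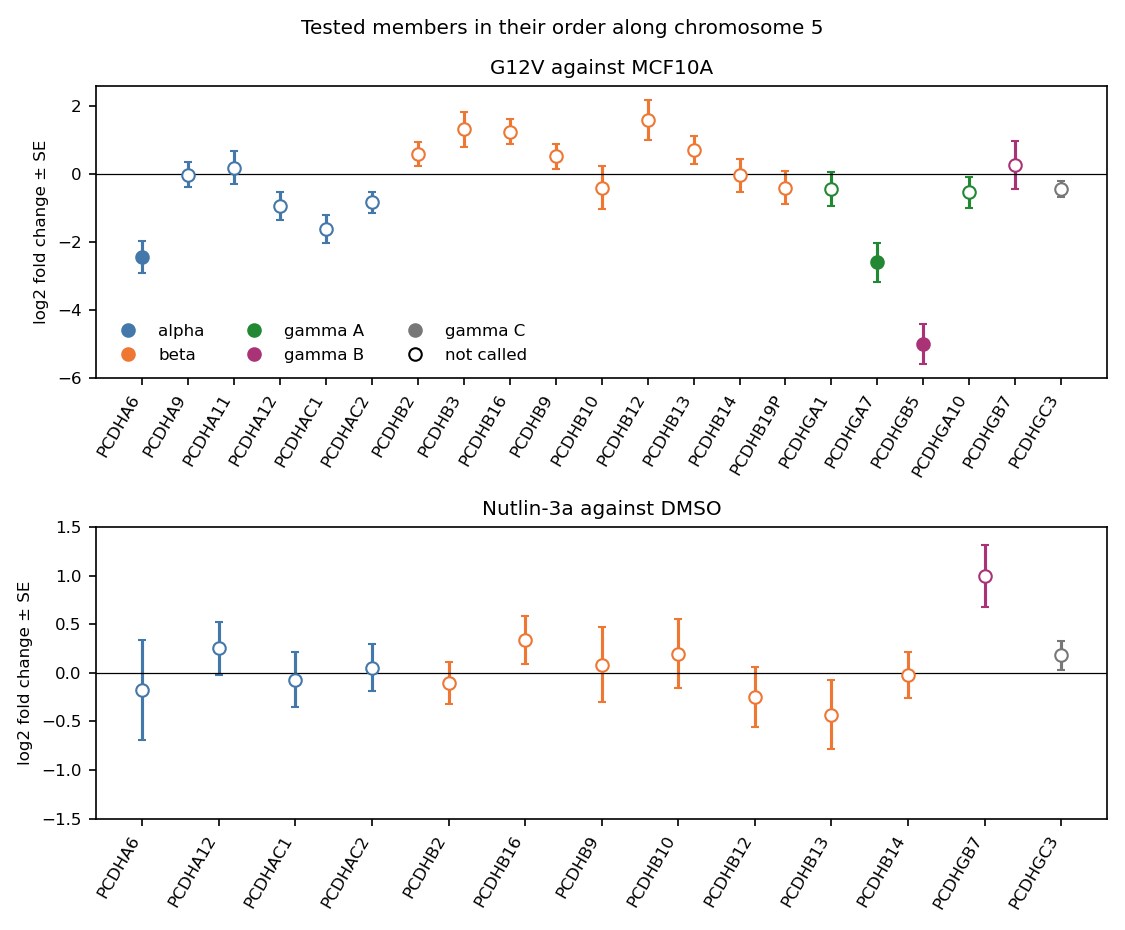
log2 fold change ± SE (vertical axis) of each tested member in order along chromosome 5, for G12V against MCF10A above and Nutlin-3a against DMSO below on a narrower scale; filled points were called and open points were not. The upper panel has 3 filled points, at -2.45, -2.60 and -5.01, and the lower panel none.

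PCDHGC3, the gamma C isoform that is expressed outside neurons too, was the most abundant member. It had 474 and 571 reads in MCF10A and 366 and 427 in G12V, so the groups did not overlap. The log2 fold change was -0.43 (SE 0.23, adjusted p = 0.326 by edgeR). Per kb of unshared exon, its level was 7.18 CPM in MCF10A and 5.33 in G12V, above PCDHA12, the next member, at 3.08 and 1.62 CPM per kb. PCDHGC4 had 1 read in each MCF10A library and 0 and 2 in G12V. PCDHGC5 had 0 and 1 reads against 4 and 4, too few for a test. The other leading gamma A genes were lower in mean without a call: PCDHGA10 had 12 and 15 reads against 10 and 9, PCDHGA1 13 and 11 against 7 and 11, and PCDHGA12 8 and 17 against 5 and 7.

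The genes that act on these promoters did not pass the test. Of 22 promoter regulators tested, which include cohesin subunits, DNA methyltransferases and TET enzymes, edgeR called 0 at a median log2 fold change of -0.05. It called 11.0% of all genes tested. CTCF, the DNA-binding factor that anchors loops at the promoters, had a log2 fold change of -0.17 (adjusted p = 0.681), and the cohesin subunit RAD21 one of -0.32 (0.398). SMCHD1, a silencing factor of the cluster, was at 0.31 (0.414), and the methyltransferase DNMT3B at 0.71 (0.440). Of 12 tested partner genes, such as the protease ADAM10 that cleaves protocadherins and kinases that bind their shared tail, 0 were called and the median was -0.44.

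Among protocadherins and FAT or Dachsous cadherins outside the cluster, 9 of 18 were tested and 2 fell, where 5.95% of all genes tested fell. PCDH1, a protocadherin of epithelia, went from 106 to 3.82 CPM (log2 fold change -4.79, adjusted p = 0.00950). FAT2, a giant cadherin of squamous epithelia, went from 155 to 0.460 CPM (-8.38, adjusted p = 3.75e-04). PCDH1 also lies on chromosome 5, at chr5:141232676-141257975. It was the only one called of 37 tested neighbours that start within 1 Mb of the members, against 11.0% of all genes tested. The median log2 fold change of these neighbours was -0.009. TAF7, a TFIID subunit gene that stands between the beta and gamma genes, was at 107 CPM in both groups (log2 fold change 0.01).

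The second question was whether 4 h of Nutlin-3a moved the members in parental cells. No member was called of the 13 tested by edgeR, by DESeq2 or by the edgeR exact test, and 0.170% of all 13529 genes were called, 0.155% higher and 0.0148% lower. When libraries of the same number were blocked, 165 genes passed in place of 23, and still no member. The log2 fold change was above 0 for 7 of the 13 members and for 51.8% of all genes. At an unadjusted p under 0.05 edgeR had 1 member, against 3.42% of all genes. That member was PCDHGB7, with 8, 6 and 7 reads in DMSO and 14, 12 and 13 in Nutlin-3a. Every Nutlin-3a library lay above every DMSO library, at 0.406 ± 0.0372 CPM in DMSO and 0.821 ± 0.0663 CPM in Nutlin-3a (n = 3 each). PCDHGB7 reached the filter's minimum only through the Nutlin-3a libraries, where it was higher, so this separation is no support for a rise. The log2 fold change was 1.00 (SE 0.32), and the adjusted p was 0.947 by edgeR and 0.274 with the replicate block. It was the only tested member whose groups did not overlap, as was so for 8.07% of all genes.

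By subcluster, the gamma B sum was 0.498, 0.736 and 0.700 CPM in DMSO and 1.23, 1.30 and 1.32 CPM in Nutlin-3a, a log2 ratio of 0.99 with no overlap. This sum leaves out PCDHGB5, which held 74.3% and 64.2% of the gamma B reads in the untreated MCF10A libraries. It thus covers the remaining gamma B genes and does not stand for the whole subcluster. PCDHGB7 gave 21 of the 33 gamma B reads in DMSO and 39 of 61 in Nutlin-3a. Without it the 6 others had 12 and 22 reads in all. The sums of the other subclusters overlapped between the groups, at log2 ratios of 0.07 for alpha, 0.02 for beta, 0.20 for gamma A and 0.16 for gamma C. Within pairs the gamma A sum was higher under Nutlin-3a in 3 of 3, at 1.38 and 1.66, 1.60 and 1.86, and 1.75 and 1.91 CPM. The gamma B sum was higher in 3 of 3 pairs, gamma C in 2, and alpha and beta in 1 each.

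None of the leading members was called. PCDHGC3 had 206, 216 and 233 reads in DMSO and 248, 214 and 224 in Nutlin-3a (log2 fold change 0.18, SE 0.15). PCDHAC1 had 188, 112 and 122 against 176, 97 and 97, where replicate 1 was the highest in both groups. PCDHA12 had 106, 100 and 171 against 146, 105 and 162. The groups overlapped for each of these genes. Within pairs of the same number the level was higher under Nutlin-3a in 3 of 3 pairs for PCDHGC3, at 11.4 and 15.3, 13.25 and 13.27, and 13.6 and 14.7 CPM. It was also higher in 3 of 3 pairs for PCDHA12, at 5.86 and 8.99, 6.14 and 6.51, and 9.98 and 10.7 CPM. With the replicate block their adjusted p-values were 0.618 and 0.548 by edgeR. Of the other tested members, PCDHB10 and PCDHGB7 were higher in 3 of 3 pairs, and PCDHB9, PCDHB14 and PCDHB16 in 2. PCDHA6, PCDHAC1, PCDHAC2, PCDHB2, PCDHB12 and PCDHB13 were higher in 1 of 3. The share of all genes higher in 3 of 3 pairs is not given here, so these counts support no rise.

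PCDHAC2 had 83, 67 and 70 reads against 96, 59 and 56. PCDHB14 had 44, 46 and 61 against 41, 49 and 47, PCDHB2 47, 42 and 38 against 38, 37 and 34, and PCDHB16 32, 42 and 38 against 51, 38 and 42. None of the leading beta genes separated the groups. PCDHA6, which fell in G12V cells, had 5, 10 and 12 reads in DMSO and 4, 7 and 11 in Nutlin-3a, a log2 fold change of -0.18 with an SE of 0.52. PCDHGA7 had 10 reads in DMSO and 9 in Nutlin-3a over 3 libraries each and was not tested. PCDHGA10 and PCDHGA12, the leading gamma A genes, had 15 and 24 reads in DMSO and 14 and 28 in Nutlin-3a.

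Of 21 promoter regulators, 12 partners, 9 non-clustered protocadherins and 34 neighbours tested in this experiment edgeR called 0, against 0.170% of all genes tested. CTCF had a log2 fold change of -0.24 (SE 0.11, unadjusted p = 0.0484, adjusted p = 1.00 by edgeR), RAD21 one of -0.22, SMCHD1 one of -0.005 and DNMT3B one of -0.22.

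**Figure D5:**
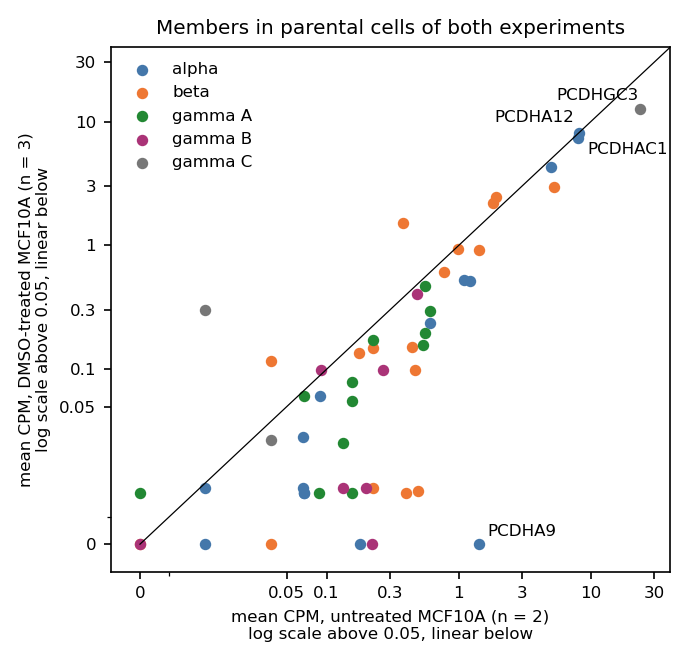
Mean CPM of the 54 members present in both tables, untreated MCF10A (horizontal axis, n = 2) against DMSO-treated MCF10A (vertical axis, n = 3), each axis logarithmic above 0.05 CPM and linear below, with the line of equality. PCDHGC3 at 23.3 and 12.7 CPM is the highest, and PCDHA9 at 1.43 and 0 CPM stands apart.

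Parental MCF10A cells were measured in both experiments, on different annotations, so these levels are set side by side with no test. Across members the levels had a Spearman's rho of 0.727 (54 members, which share libraries and are not replicates). PCDHAC1 was at 8.15 CPM in untreated and 8.13 CPM in DMSO-treated cells, and PCDHGC3 at 23.3 and 12.7 CPM. The members named for G12V also differed between these measurements: PCDHA6 was at 1.10 CPM in untreated and 0.530 in DMSO-treated cells, PCDHGA7 at 0.558 and 0.197, and PCDHB12 at 0.377 and 1.51. For PCDHB12 the DMSO level was thus above its G12V level of 1.16 CPM. PCDHA9 was at 1.43 CPM in untreated cells, from 33 and 31 reads, and at 0 reads in all 3 DMSO libraries. The annotation and the experiment cannot be told apart as sources of these differences.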

How the data were processed

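RNA-seq libraries were made with an unstranded kit (NEBNext Ultra) from poly(A) RNA. Reads were aligned to hg19 with TopHat and counted per gene with HTSeq by the authors, who deposited raw counts per gene in 2 tables, on different annotations. The strand and overlap settings of the counting are not given in the sources used here. Totals per library were 15453226 to 23683975 counts, and 0 columns lacked a sample.

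Each table was fitted on its own with edgeR 4.0.16 in R 4.3.3 (filterByExpr, TMM factors, quasi-likelihood F-test, Benjamini-Hochberg adjustment over all genes tested), with the thresholds of the study's methods for a call (adjusted p under 0.05, log2 fold change beyond 0.5 in size). CPM are counts over TMM-scaled library sizes, and SE is the size of the log2 change divided by the root of its F statistic. Subcluster sums were described without a test. In simulated counts with 200 changed genes, 82 were recovered with 5 false calls in the G12V design and 182 with 21 in the Nutlin-3a design. The changed genes were drawn only from better covered genes. Most members had fewer reads than these, so the recovery rates do not carry over to the members. Alternatives were DESeq2 1.42.0, the edgeR exact test, other scalings, filters and prior counts, no fold limit, a replicate block, leaving out each library, and sums without the member with most reads.

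The members and lists were chosen with earlier results of these data known. Members named are those called, the 3 highest by mean CPM in each subcluster of each table, those just short of the threshold, called genes of the lists and neighbours, and CTCF, RAD21, SMCHD1 and DNMT3B. HRAS, CDKN1A and MDM2 were named as checks of the labels. Others are named beside a count or after their values were seen: PCDHA4, PCDHA9, PCDHA11, PCDHB3, PCDHB10, PCDHB12, PCDHB19P, TAF7 and the cell type markers. In the Nutlin-3a experiment libraries of the same number deviated together (correlations 0.66, 0.71 and 0.72), so the numbers pair them; the labels do not state the pairing. Starts in the tables count from 0 and were raised by 1.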

Additional observations from a re-analysis of the deposited data

How the results depend on the processing

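Of the 3 members called in G12V cells, the count was 5 by the edgeR exact test (4 lower and 1 higher, PCDHB16) and 0 to 3 with each library left out in turn: 0 without MCF10A replicate 1, where no gene of the table was called by edgeR, and 1 without MCF10A replicate 2. With a replicate block it was 8 (6 lower and 2 higher), with PCDHA12 (adjusted p = 0.0177 by edgeR), PCDHAC1 (0.000988), PCDHAC2 (0.0464) and PCDHB16 (0.0110) among them, and 4158 of all genes against 1575. Libraries of the same number correlated at 0.57 in their deviations there, and those of different number at -0.57. With 2 libraries per group these values can differ only in sign, and the labels state no pairing. Whether the numbers pair these libraries was thus not settled, and the calls of the main fit rest on taking them as unpaired. In the Nutlin-3a experiment the block left the count of members at 0 and changed no call on a member, while 165 of all genes were called against 23. The other scalings, filters, prior count and fold limit kept the count of members in G12V cells within 1.5 times.

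The log2 ratio of the gamma B sum in G12V came to -0.30 without PCDHGB5, and that of gamma C without PCDHGC3 to 1.72 in G12V and to -0.69 under Nutlin-3a, over few reads. Every other alternative moved the sums by less than the spread between libraries. PCDHB14 in G12V turned to 0.0042 with library totals alone and to 0.035 with the replicate block, and ranged from -0.48 to 0.68 with libraries left out. Leaving out libraries turned PCDHGB7 in G12V (-0.40 to 1.67) and, under Nutlin-3a, PCDHAC1 (-0.39 to 0.15), PCDHAC2 (-0.21 to 0.17) and PCDHB14 (-0.15 to 0.14). None of these was called, and the cause was not tested. Over 21 single-member results, 274 alternative values kept direction and side of the threshold, 12 lost a call, 8 gained one and 11 turned. Depth limits the rest: 36 of 57 members in the untreated table and 44 of 57 in the other had too few reads to be tested, and small differences were not detectable at this depth.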
